A study of Mus musculus
Rattus norvegicus and Rattus norvegicus and Mus musculus with 18 samples.

Results

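The host side of a mammary tumor was set against mammary gland without a tumor, using rat transcripts alone. The tumors had grown from 4T1 cells, which derive from a mouse mammary carcinoma and had been put into the fat pad of SRG rats, so that reads on rat genes stand for the host, apart from a small share of misplaced mouse reads. The comparison took 7 of the 18 libraries of the series: 5 from the non-necrotic rim of the tumor, 27 days after transplantation (Rat3867, Rat3869, Rat3875, Rat3876 and Rat3877), and 2 from normal gland of rats with no graft, called gland 1 and gland 2. The labels give all of these libraries the genotype wildtype and no treatment, although the SRG host carries edits. SRG rats lack functional Rag2 and Il2rg and so lack mature T, B and NK cells; no label used here names the strain or age of the gland rats. Nothing in the labels says whether the gland libraries came from separate animals, so a p-value covers the spread between these libraries. Of 32883 rat genes counted in the gland, the 14876 with a value in the rim libraries were compared.

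The mammary fat pad is a depot of adipocytes crossed by a branching epithelium of luminal and myoepithelial cells, with fibroblasts, vessels and resident macrophages between them. Around a growing carcinoma, fibroblasts turn into matrix-producing cells that lay down fibrillar collagen, and monocytes are drawn from blood and become macrophages. Rat mammary tissue lies against skin and body wall muscle, so muscle can enter a dissected gland.

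The libraries labelled as gland were checked first against the markers of the tissue. Transcripts of 40 measured skeletal muscle genes took 34 and 23.4% of rat reads in gland 1 and gland 2, against 0.19 to 0.446% in the rims. Adipocyte transcripts were present in both, at 0.313 and 1.53% of reads. Luminal keratins were near 0 in gland 1: Krt18 stood at 0.233 and 19.9 CPM and Krt8 at 3.77 and 23.5 CPM in gland 1 and gland 2. CPM here means read counts scaled to a fixed library size that was adjusted by the trimmed mean of M values (TMM), with 0.5 read added. The luminal list took 0.003% of rat reads in gland 1 and 0.0418% in gland 2. Members of the epithelial lists varied in gland 1, with Krt14 at 0.0466, Erbb3 at 21.2 and Itgb4 at 126 CPM. So luminal transcripts were scarce in gland 1, and gland 2 held transcripts of epithelium, fat and muscle. Depth was 4900651 to 9183248 rat reads in the rims and 20692580 and 21387704 in the gland libraries. Mouse reads made up 65.7% of the rat and mouse reads in the rim of Rat3876 and 79.6 to 81.3% in the other rims. Misplaced mouse reads, estimated from a pellet of pure 4T1 cells, amounted to 1.34 to 3.04% of the rat reads of a rim. For 1004 genes they would make up over 10% of the rim reads.

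**Figure D1:**
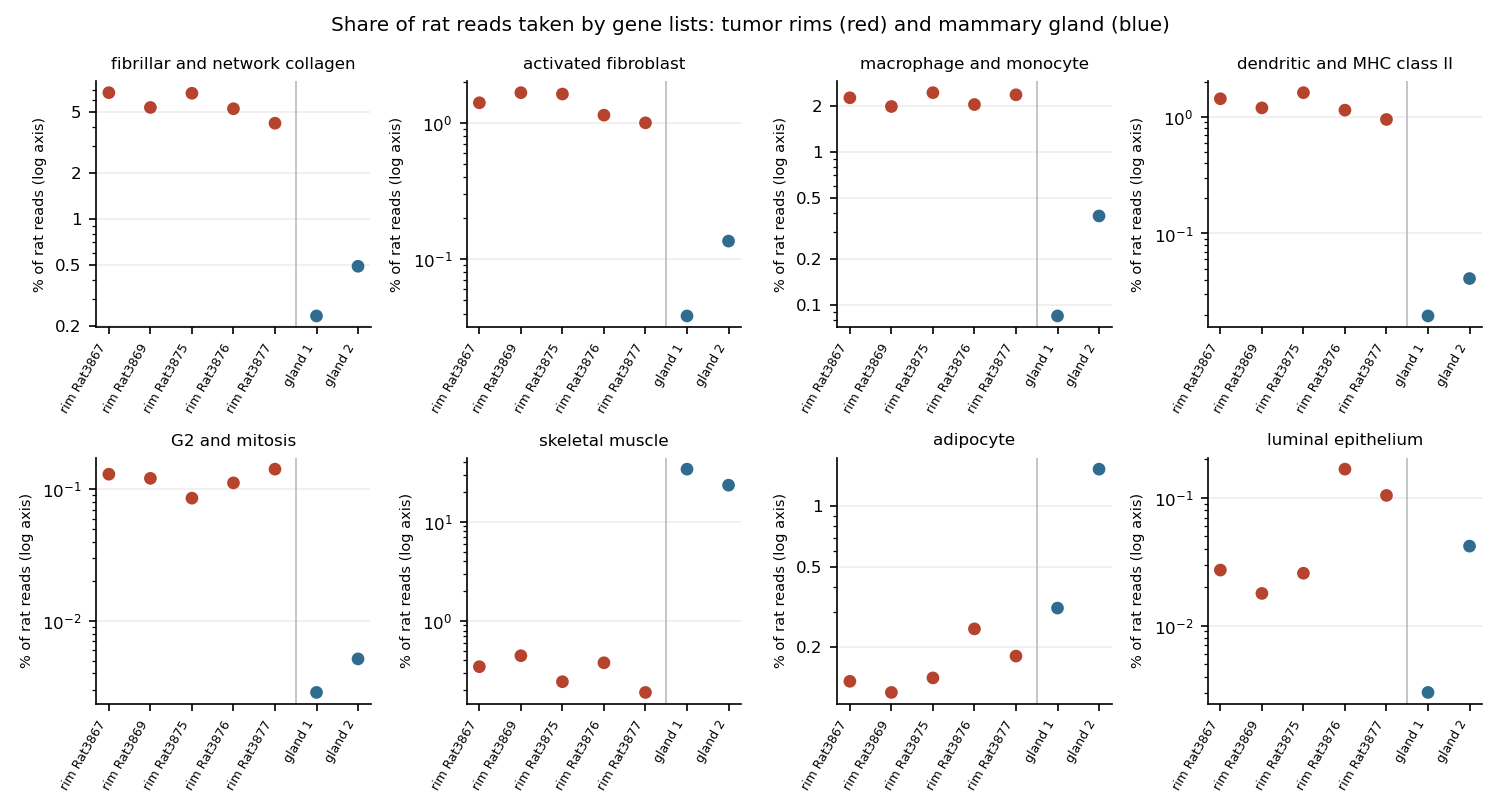
Share of rat reads, in percent on a log axis, taken by 8 gene lists in each of the 5 rim libraries (red) and the 2 gland libraries (blue); each point is 1 library. The collagen, fibroblast, macrophage, MHC class II and mitosis lists take more reads in every rim than in either gland library, the muscle and adipocyte lists take fewer, and the luminal list overlaps.

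Between tumor rim and gland most rat genes differed. Of 14024 genes with at least 1 CPM in at least 2 libraries, 4432 were higher in the rim and 4247 lower (limma, Benjamini-Hochberg adjusted p under 0.05), so that 61.9% of all genes tested were called, 31.6% higher and 30.3% lower. Differences of at least 2-fold were found in 3340 of the genes called higher and 2958 of those called lower, and of at least 8-fold in 1038 and 740. A list's calls are to be read against these shares, and its median log2 difference against the median of all genes tested, which was 0.00. The share of all genes tested whose groups did not overlap is not given here. Where named genes are said below to lie apart, this describes their values and does not set them apart from other genes. In bulk tissue, fewer cells of a type and less RNA per cell cannot be told apart.

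The scaling of the libraries mattered most for the genes called lower. TMM, which sets the bulk of genes equal, gave factors of 1.13 to 1.24 in the rims against 0.521 and 0.806 in gland 1 and gland 2. With total counts in its place, the median of all genes moved to 0.89, with 7472 genes higher and 1843 lower, so that 80.2% of calls were higher in place of 51.1%. Upper-quartile scaling moved the median to 0.17, with 57.4% of calls higher, and total counts without muscle genes moved it to 0.40, with 65.5% and 2959 genes lower. TMM without muscle genes left it at 0.00. Both settings left out only the 40 measured genes of the muscle list. Other genes abundant in muscle stayed in, such as Aldoa with 540101 and 337471 reads in gland 1 and gland 2. A call in the same direction under all 5 scalings was made for 4423 genes higher in the rim, 31.5% of those tested, and for 1843 lower, 13.1%. Those are the calls meant below by "under every scaling". None of the other scalings moved the median of all genes clearly below 0. A call of higher was therefore hardly tested by them, and 4423 of the 4432 made under TMM passed. The criterion bears mainly on genes called lower, where the number that passed, 1843, was that of total counts.

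**Figure D2:**
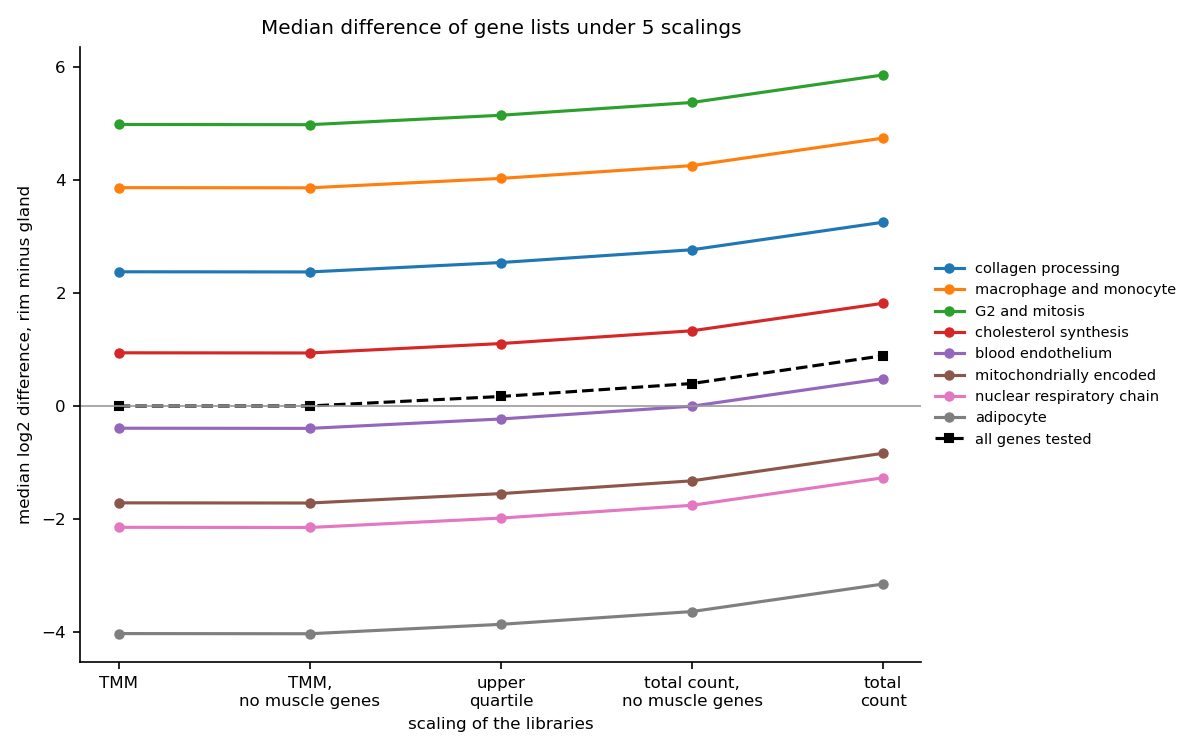
Median log2 difference, rim minus gland, of 8 gene lists and of all genes tested (dashed, squares), under 5 ways of scaling the 7 libraries along the x axis. All medians shift upward together by about the shift of all genes, from 0.00 under TMM to 0.89 under total counts; the endothelial list changes sign, from -0.40 to 0.48.

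Among the 10 largest increases under every scaling were matrix genes and genes of myeloid cells, all of them close to 0 in the gland. Lrrc15, a membrane protein of tumor-associated fibroblasts, stood at 143, 146, 132, 71.9 and 75.7 CPM in the rims of Rat3867, Rat3869, Rat3875, Rat3876 and Rat3877, the order kept below, against 0.0466 and 0.321 CPM in gland 1 and gland 2 (log2 difference 9.80 ± 0.66 SE, limma adjusted p = 1.08e-05). This ranking took only genes without overlap between the groups, so the separation of rim and gland was set by the choice. Tnn, which encodes tenascin-N, had 154, 174, 506, 170 and 104 CPM in the rims and 0.233 and 0.437 CPM in the gland libraries (9.21 ± 0.54). Tnc, the related tenascin-C of healing and tumor matrix, had 1121, 1703, 824, 696 and 915 CPM in the rims and 2.38 and 3.76 CPM in the gland libraries (8.39 ± 0.33). Vsig4, a complement receptor of tissue macrophages, reached 88.3, 78.1, 142, 49.4 and 93 CPM in the rims, against 0.233 and 0.204 CPM in the gland libraries (8.61 ± 0.35). Trh, the precursor of thyrotropin-releasing hormone, spread widely over the rims, with 353, 99.8, 213, 72.4 and 42.7 CPM, against 0.326 and 0.321 CPM in the gland libraries (8.52 ± 0.72), and Prss35, a serine protease-like protein, had 161, 139.8, 131, 70.8 and 56 CPM, against 0.14 and 0.845 CPM (8.23 ± 0.67). Rat3876 and Rat3877 were the lowest of the rims for Lrrc15 and Prss35, and without both of them the difference of Trh was 9.29. Against gland 1 alone the differences of Lrrc15 and Prss35 were 11.19 and 9.53, and against gland 2 alone 8.40 and 6.93, with 0 reads of Lrrc15 and 1 read of Prss35 in gland 1.

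For the other 4 of these 10 genes the 2 gland libraries together held 1 to 3 reads, so the ratio of pooled reads is given with its 95% counting interval. Grem1, a secreted antagonist of bone morphogenetic proteins, had 58.4, 147, 66.5, 42.7 and 75.5 CPM in the rims; 2592 rim reads against 2 gland reads gave a ratio of 1019.9 (282 to 8426). Gpr83, a G protein-coupled receptor, had 129.8, 44.4, 62, 86.9 and 38.3 CPM in the rims, with a ratio of 689.9 (236 to 3348). Ccl17, a chemokine for cells that carry CCR4, had 22.6, 23.4, 33.9, 14.3 and 48.9 CPM in the rims, with a ratio of 741 (133 to 29281). Podnl1, a small leucine-rich matrix protein, had 48.5, 36.2, 35, 14.3 and 5.27 CPM in the rims, with a ratio of 357 (98.5 to 2951). The lower bounds of these 4 intervals ran from 98.5 to 282. The intervals cover counting error only.

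**Figure D3:**
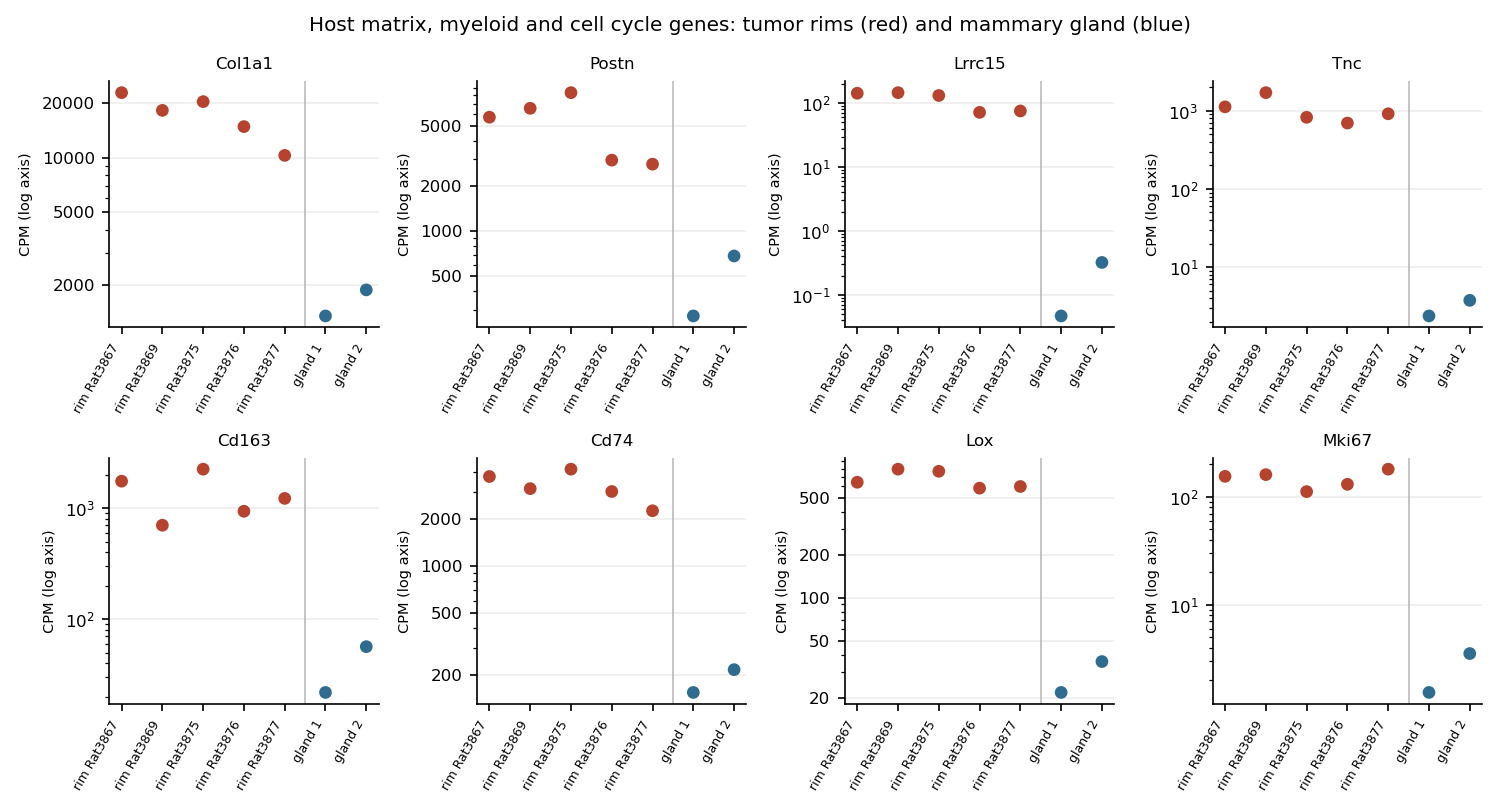
CPM on a log axis of 8 host genes in each of the 5 rim libraries (red) and the 2 gland libraries (blue); each point is 1 library. Every rim lies above both gland libraries for all 8 genes, which for Lrrc15 and Tnc was a condition of their ranking.

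Matrix genes rose broadly. Of 25 tested genes of activated fibroblasts, 24 were higher in the rim and none lower, each under every scaling, with a median log2 difference of 3.13. Of the 24, 3 were under 1 CPM in both gland libraries and passed the filter of 1 CPM in 2 libraries through the rims alone. Of the other 22 tested, 21 were higher. Postn, the matricellular protein periostin, had 5724, 6562, 8336, 2967 and 2791 CPM in the rims and 273 and 685 CPM in the gland libraries (3.48 ± 0.52 SE, limma adjusted p = 0.000561). The rims of Rat3876 and Rat3877 held the lowest values, still above both gland libraries. Fap, the surface protease of activated fibroblasts, had 285, 265, 370, 170 and 126 CPM in the rims and 32.8 and 24.3 CPM in the gland libraries (3.01 ± 0.38). Acta2, the smooth muscle actin of myofibroblasts, had 678, 978, 527, 651 and 546 CPM in the rims and 31.6 and 256 CPM in the gland libraries (2.87 ± 0.66); against gland 1 alone it differed by 4.38 and against gland 2 alone by 1.36. For Postn the same values were 4.14 and 2.81. Comp, a cartilage matrix protein, was the member not called (0.79 ± 1.39, adjusted p = 0.642).

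Most collagen genes were higher in the rim, and the chains of collagen IV split. Of 19 tested collagen genes, 15 were higher in the rim and 3 lower, all under every scaling, and the list took 4.22 to 6.69% of rat reads in the rims against 0.231 and 0.489% in gland 1 and gland 2. Col1a1, the main chain of fibrillar collagen I, had 22841, 18241, 20384, 14847 and 10301 CPM in the rims and 1342 and 1868 CPM in the gland libraries, 10.5-fold (3.40 ± 0.40, limma adjusted p = 0.000158). Col3a1, the chain of collagen III, had 15444, 13421, 21213, 16589 and 12682 CPM in the rims and 1708 and 2013 CPM in the gland libraries (3.07 ± 0.34), and Col6a2, of the beaded-filament collagen VI, had 3608, 2406, 3529, 2166 and 2024 CPM, against 242 and 243 CPM (3.46 ± 0.28). None of these 3 overlapped between the groups. Among the basement membrane chains of collagen IV, the ubiquitous chains Col4a1 (1.75 ± 0.34) and Col4a2 (2.10 ± 0.39) were higher in the rim. The other tested chains of that collagen, Col4a3 (-3.01 ± 0.58), Col4a4 (-2.36 ± 0.37) and Col4a5 (-2.25 ± 0.40), were lower. Col4a4 had 7.42, 5.24, 14.5, 9.07 and 12 CPM in the rims and 51 and 42.7 CPM in the gland libraries, without overlap. Against gland 1 alone Col4a1 and Col4a2 differed by 2.36 and 2.80, and against gland 2 alone by 1.15 and 1.39. Col8a2, of a short-chain collagen, was not called (-0.86 ± 0.50), but was called lower without the rim of Rat3876, its highest (-1.19, adjusted p = 0.0119).

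Every one of 17 tested genes for the folding, cross-linking and cutting of collagen was higher in the rim under every scaling, with a median of 2.37. Of the 17, 1 was under 1 CPM in both gland libraries and passed the filter through the rims alone. Lox, the oxidase that cross-links collagen, had 641, 792, 765, 583 and 599 CPM in the rims and 21.8 and 35.8 CPM in the gland libraries, 24-fold (4.59 ± 0.22, limma adjusted p = 3.79e-06). Serpinh1, the collagen chaperone HSP47, had 1404, 849, 738, 1676 and 879 CPM in the rims and 281 and 363 CPM in the gland libraries (1.72 ± 0.33), and P4hb, a subunit of prolyl 4-hydroxylase, had 1149.5, 1255, 1229.6, 1143 and 1086 CPM, against 379 and 383 CPM (1.62 ± 0.15). P4ha3, a catalytic subunit of that enzyme, had the largest difference of the list, 6.81 (7.83 against gland 1 alone and 5.78 against gland 2 alone). Both Lox and P4hb varied little from rim to rim.

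Of 28 tested matrix proteases and their inhibitors, 23 were higher in the rim and 2 lower, all under every scaling, with a median of 2.87. Of the 23, 7 were under 1 CPM in both gland libraries and passed the filter through the rims alone. Of the other 21 tested, 16 were higher. Mmp14, the membrane-bound collagenase that activates Mmp2, had 2199, 1624, 3204, 898 and 809 CPM in the rims and 132 and 300.1 CPM in the gland libraries (2.94 ± 0.56, limma adjusted p = 0.00202). Mmp2, a gelatinase, had 1199.9, 961, 2184, 1136 and 831 CPM in the rims and 149 and 358 CPM in the gland libraries (2.36 ± 0.42). The rim of Rat3875 was the highest for both, and every rim lay above both gland libraries. Mmp13, the interstitial collagenase of rodents, had 37.7, 11.7, 8.91, 15.8 and 9.68 CPM in the rims and 1 read in the gland libraries together, a ratio of 464 (95% counting interval 82.9 to 18339). Timp1, an inhibitor of these enzymes, was higher in the rim (5.23 ± 0.27), whereas the inhibitor Timp4, which muscle and fat carry, was lower (-3.16 ± 0.69), as was the membrane protease Mmp15 (-2.61 ± 0.29). Against gland 1 alone Mmp14 and Mmp2 differed by 3.53 and 3.0, and against gland 2 alone by 2.35 and 1.73.

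Fibroblast genes of the resting tissue did not share this pattern. Of 16 tested genes of adventitial fibroblasts 4 were higher in the rim, 4 lower and 8 not called, with a median of -0.19 under TMM and 0.68 under total counts. All 4 higher calls and 1 of the 4 lower calls held under every scaling. Fbn1, fibrillin-1 of microfibrils, had 927, 785, 1024, 1315 and 976 CPM in the rims and 283 and 395 CPM in the gland libraries (1.57 ± 0.23, limma adjusted p = 0.000453). Gsn, which encodes the actin-severing protein gelsolin, had 419.6, 431, 584, 840.4 and 641 CPM in the rims and 2589 and 4249.8 CPM in the gland libraries (-2.56 ± 0.32), lower in all 5 rims. Dpt, dermatopontin of loose connective tissue, had 26.7, 32.6, 68.5, 230.5 and 133 CPM in the rims and 421 and 691 CPM in the gland libraries (-2.92 ± 0.78, adjusted p = 0.011). Under total-count scaling the call on Dpt was lost (-2.04, adjusted p = 0.0587), and against gland 1 alone as well (-2.56, adjusted p = 0.0683). Without the rims of Rat3876 and Rat3877, which held the most Dpt, the difference was -3.74.

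Of 9 tested secreted modulators of Wnt signalling, 5 were higher in the rim and 1 lower. Sfrp4, a soluble decoy related to the Wnt receptors, had 94.8, 165, 324, 1280.1 and 551 CPM in the rims and 10.8 and 9.47 CPM in the gland libraries (5.0 ± 0.85, limma adjusted p = 0.00111). The rims of Rat3876 and Rat3877 held the highest values, and without them the difference was 4.13. Sfrp1, a decoy of the same family, had 127, 115, 201, 307 and 217 CPM in the rims and 15.8 and 17.6 CPM in the gland libraries (3.44 ± 0.35), and Dkk3, a dickkopf protein, had 111, 117, 149, 119 and 79.9 CPM, against 5.92 and 15.7 CPM (3.55 ± 0.36; 4.26 against gland 1 alone and 2.85 against gland 2 alone). Frzb, a further decoy, was the member called lower (-1.90 ± 0.52, adjusted p = 0.0121), a call lost under total counts (-1.02) and against gland 2 alone (-1.89, adjusted p = 0.063).

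**Figure D4:**
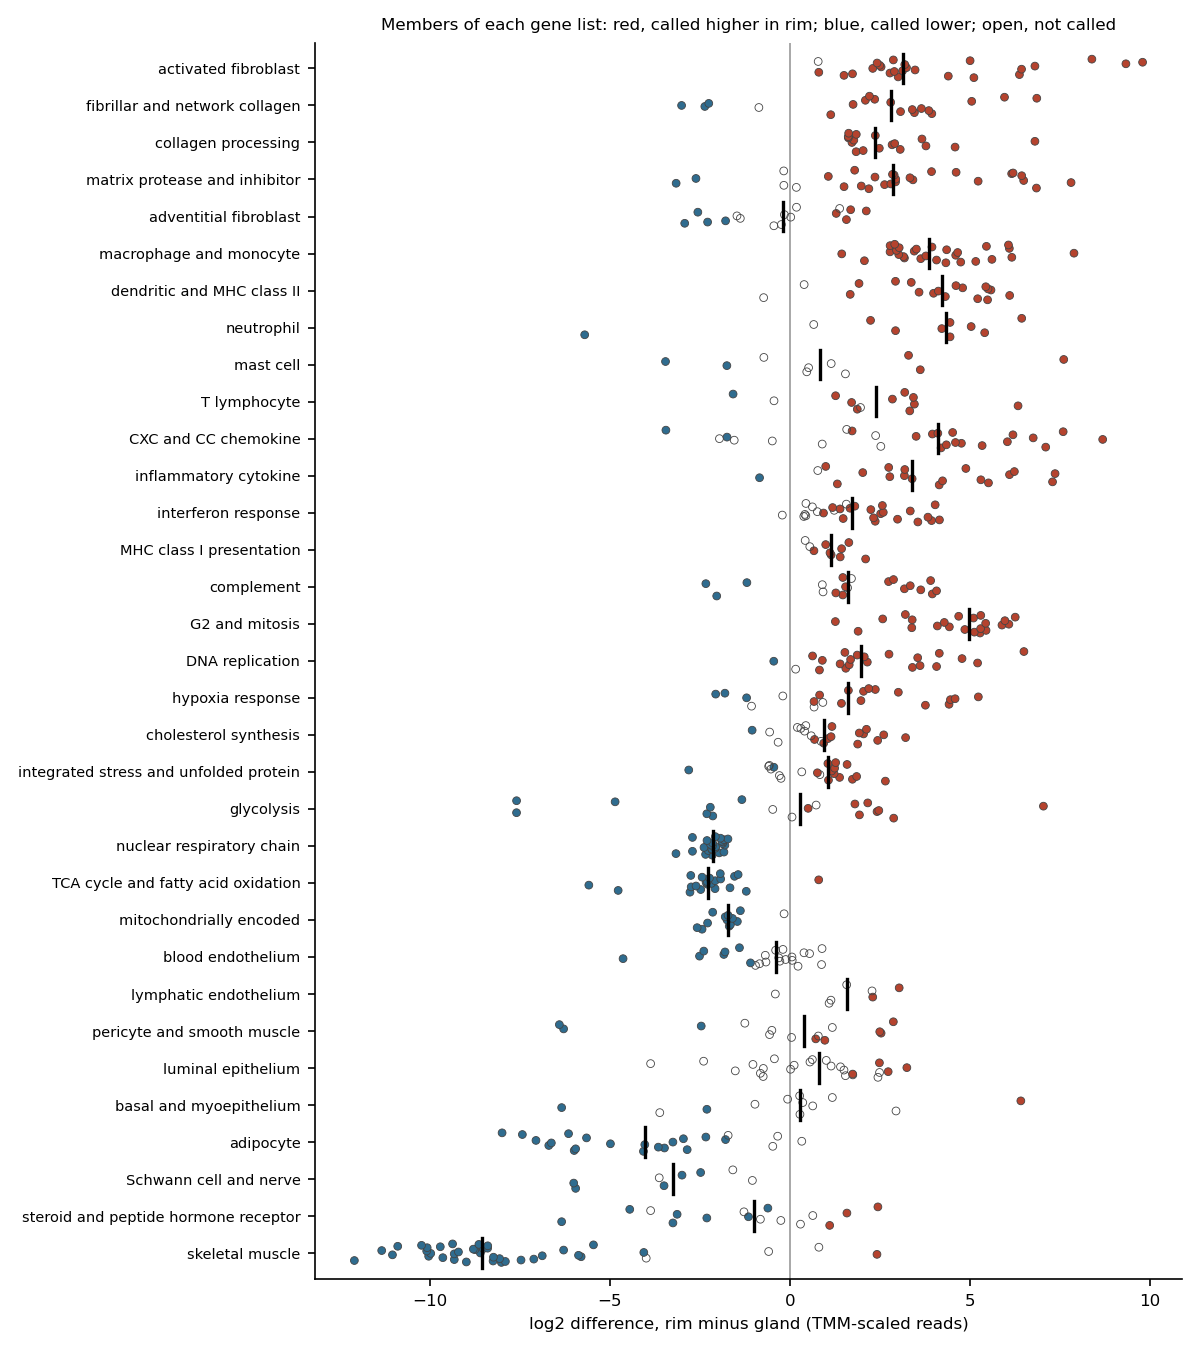
Log2 difference, rim minus gland, of the tested members of 33 gene lists, 1 point per gene; red points were called higher in the rim, blue points lower and open points were not called, and the black bar marks the median of a list. Every member of the activated fibroblast, collagen processing, macrophage and mitosis lists lies right of 0 and every member of the respiratory chain list left of it, while the endothelial and epithelial lists straddle 0.

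Macrophage transcripts were higher in the rim throughout. All 28 tested genes of macrophages and monocytes were called higher under every scaling, with a median of 3.86, and the list took 1.98 to 2.43% of rat reads in the rims against 0.0846 and 0.381% in gland 1 and gland 2. Of the 28, 2 were under 1 CPM in both gland libraries and passed the filter through the rims alone. Cd163, the haemoglobin scavenger receptor, had 1754, 703, 2251, 940.1 and 1227 CPM in the rims and 21.9 and 56.7 CPM in the gland libraries (5.16 ± 0.49, limma adjusted p = 5.33e-05). Cd68, a lysosomal glycoprotein of macrophages, had 206, 234, 195, 146 and 238 CPM in the rims and 11.1 and 15.2 CPM in the gland libraries, 15.4-fold (3.95 ± 0.22). Lyz2, lysozyme of macrophages and neutrophils, had 1168, 2241, 2295, 2122 and 2463 CPM in the rims and 92.1 and 106 CPM in the gland libraries (4.33 ± 0.29). The groups did not overlap for these 3 genes, and the rim of Rat3867 was the lowest for Lyz2. Spp1, osteopontin, had 160.5, 417, 252, 173 and 630.4 CPM in the rims and 27 and 1.54 CPM in the gland libraries (5.46 ± 0.98). Arg1, the arginase of macrophages in tumors and wounds (6.16 ± 0.29), Gpnmb, a glycoprotein of lipid-laden macrophages (4.74 ± 0.36), and the mannose receptor Mrc1 (4.60 ± 0.41) were also called. Apoe, an apolipoprotein, had the smallest difference of the list, with 5915, 3709, 5197, 4958 and 4647 CPM in the rims and 936 and 3388 CPM in the gland libraries (1.44 ± 0.46, adjusted p = 0.0237). Its call was lost against gland 2 alone (0.51, adjusted p = 0.231), while against gland 1 alone it was 2.37. Cd163 differed by 5.85 against gland 1 alone and 4.48 against gland 2 alone, and Spp1 by 3.40 and 7.52.

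Genes of antigen presentation were higher in the rim as well. Of 18 tested genes of dendritic cells and MHC class II, 16 were higher in the rim under every scaling and none lower, with a median of 4.22. Of the 16, 3 were under 1 CPM in both gland libraries and passed the filter through the rims alone. Of the other 15 tested, 13 were higher. Cd74, the invariant chain, had 3752, 3137, 4182, 3008 and 2264 CPM in the rims and 155 and 217 CPM in the gland libraries (4.12 ± 0.27, limma adjusted p = 1.01e-05). RT1-Da, an MHC class II alpha chain of the rat, had 3001, 2573, 3609, 2426 and 1768 CPM in the rims and 49.5 and 66.6 CPM in the gland libraries, 45.3-fold (5.50 ± 0.28), and its beta chain RT1-Db1 had 1825, 1611, 2291, 1357 and 996 CPM, against 55.3 and 56.5 CPM (4.80 ± 0.29). Rat3877 was the lowest and Rat3875 the highest rim for all 3, and none came near the gland. Reads of RT1 genes can be split among near-identical copies, so single RT1 values are uncertain. Ciita, the master regulator of class II genes (5.22 ± 0.47; 5.98 against gland 1 alone and 4.45 against gland 2 alone), and Ccr7, a homing receptor of mature dendritic cells (6.10 ± 0.68; 7.10 and 5.11), were called as well. Batf3, a transcription factor of cross-presenting dendritic cells (-0.73 ± 0.55), and RT1-DMb, a peptide loader (0.40 ± 0.65), were not.

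Granulocyte genes were few and mixed. Of 17 neutrophil genes with a value, 10 passed the filter on low values; 4 of these were under 1 CPM in both gland libraries and passed through the rims alone, and of the other 6, 4 were higher in the rim and 1 lower. S100a8, a calcium-binding protein of neutrophils and monocytes, had 18.5, 32.1, 23.3, 34.2 and 27.5 CPM in the rims and 1.72 and 0.379 CPM in the gland libraries (5.03 ± 0.53, limma adjusted p = 8.39e-05; 3.94 against gland 1 alone and 6.13 against gland 2 alone). S100a9, its partner, had 25.7, 43.3, 38.3, 55.3 and 44.2 CPM in the rims and 2.38 and 1.95 CPM in the gland libraries (4.22 ± 0.28). Csf3r, the receptor of granulocyte colony-stimulating factor, had 52.9, 28.9, 32, 43 and 32.5 CPM in the rims and 0.699 and 1.08 CPM in the gland libraries (5.41 ± 0.30), and these 3 genes showed no overlap. Mpo, myeloperoxidase of neutrophil granules, went the other way, with 0.0815, 0.0806, 0.09, 1.65 and 1.97 CPM in the rims and 4.7 and 47 CPM in the gland libraries (-5.70 ± 1.64, adjusted p = 0.0152; -4.04 against gland 1 alone and -7.36 against gland 2 alone). The rims of Rat3867, Rat3869 and Rat3875 held 0 reads of Mpo. Of 10 mast cell genes 3 were higher, 2 lower and 5 not called. Of the 3, 1 was under 1 CPM in both gland libraries. Mcpt1, a mast cell protease, had 34, 33.8, 17.6, 161 and 79.7 CPM in the rims and 0.14 and 0.437 CPM in the gland libraries (7.61 ± 0.81). Cma1, a mast cell chymase, was lower, with 2.2, 2.18, 11.1, 8.36 and 10.8 CPM in the rims and 49.2 and 72.3 CPM in the gland libraries (-3.45 ± 0.73). Without the rims of Rat3876 and Rat3877 the difference of Mcpt1 was 6.83. Hdc, histidine decarboxylase, which makes histamine, was higher in the rim (3.62 ± 0.57).

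Chemokine genes were higher in the rim in part. Of 25 tested chemokine genes, 16 were higher in the rim and 2 lower, with a median of 4.11, or 4.00 with the 2 members that had no gland read placed at the bound that 3 reads allow. Of the 16, 10 were under 1 CPM in both gland libraries and passed the filter on low values through the rims alone. Of the other 15 tested, 6 were higher, beside 31.6% of all genes tested. The median of the list rests in part on members that passed through the rims alone. Cxcl13, a chemokine for B cells that macrophages also make, had 238, 70.7, 147, 174 and 183 CPM in the rims and 1.54 and 2.77 CPM in the gland libraries, 73.3-fold (6.19 ± 0.43, limma adjusted p = 1.29e-05). Cxcl16, a membrane-bound chemokine and scavenger receptor, had 202, 176, 172, 127 and 121 CPM in the rims and 7.03 and 14.4 CPM in the gland libraries (3.96 ± 0.30), and Ccl6, a macrophage chemokine of rodents, had 176, 148, 272, 227 and 209 CPM, against 42.6 and 87.4 CPM (1.73 ± 0.31). The groups were apart for all 3. The eosinophil chemokine Ccl24 was lower, with 7.09, 2.34, 11.4, 15.1 and 25.4 CPM in the rims and 72.4 and 144 CPM in the gland libraries (-3.44 ± 0.79; -4.11 without the rims of Rat3876 and Rat3877). Cxcl9, a chemokine induced by interferon gamma, was called lower (-1.75 ± 0.65, adjusted p = 0.043) although the rim of Rat3877 stood above both gland libraries; the call was lost under total counts (-0.87), against either gland library alone (adjusted p = 0.121 and 0.152) and without any 1 of the other 4 rims. Cxcl12, the chemokine of stromal fibroblasts that binds CXCR4, was not called (-1.55 ± 0.61, adjusted p = 0.0525), with 28.9, 31.3, 61.3, 152 and 77.4 CPM in the rims and 125 and 229 CPM in the gland libraries. Without the rim of Rat3876, the highest of the rims, it was called lower (-1.89, adjusted p = 0.00853).

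Of 19 tested inflammatory cytokines and regulators, 17 were higher in the rim and 1 lower, with a median of 3.39; 7 of the 17 were under 1 CPM in both gland libraries. Il33, an alarmin of stromal cells, had 739, 531, 375, 572 and 477 CPM in the rims and 93.7 and 179 CPM in the gland libraries (2.02 ± 0.30, limma adjusted p = 0.000547). Tgfb1, the growth factor that drives fibroblast activation, had 247, 293, 267, 206 and 246 CPM in the rims and 21.8 and 34.4 CPM in the gland libraries, 9.13-fold (3.19 ± 0.20). Il6, a pleiotropic cytokine, had 4.81, 3.95, 6.57, 12.6 and 5.27 CPM in the rims and 0 reads in both gland libraries, which makes it at least 68.7-fold higher against a bound of 3 reads over the group. Il10, an anti-inflammatory cytokine, had 393 rim reads against 1 gland read, a ratio of 309 (95% counting interval 55.2 to 12247). Nfkbia, the inhibitor of NF-kappaB, was called lower by a small margin (-0.84 ± 0.31, adjusted p = 0.0403); the call was lost against gland 1 alone (-0.44), without the rim of Rat3867, Rat3869, Rat3875 or Rat3876 in turn, and its sign turned under total-count scaling (0.034). Csf1, the growth factor of macrophages, was not called in the full set (0.77 ± 0.31, adjusted p = 0.0575); it was higher against gland 1 alone (1.31, adjusted p = 0.00562).

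Complement genes were mostly higher in the rim. Of 19 tested genes 12 were higher in the rim under every scaling and 3 lower, none of these under every scaling. C1qa and C1qc, chains of the first component made by macrophages, had 1575, 1392, 1443, 1375 and 1143 CPM and 1653, 1583, 1881, 1334 and 1226 CPM in the rims, against 104 and 222 CPM and 84.2 and 177 CPM in the gland libraries (limma log2 differences 3.18 ± 0.28 and 3.63 ± 0.29). Both lay apart between the groups. The lower genes were Cfd, the adipocyte protease adipsin (-2.33 ± 0.66), and the membrane regulators Cd55 (-2.03 ± 0.55) and Cd59 (-1.19 ± 0.21). Cfd had 148, 115, 184, 633 and 283 CPM in the rims and 635 and 2006 CPM in the gland libraries, and the rim of Rat3876 almost reached gland 1. Cd55 lost its call against gland 2 alone (-1.76, adjusted p = 0.0894) and stood at -2.65 without the rims of Rat3876 and Rat3877. The call on Cfd was lost under total-count scaling (-1.46, adjusted p = 0.119) and against gland 1 alone (-1.51, adjusted p = 0.13).

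Lymphocyte lists could be read only in part. The hosts lack mature T, B and NK cells, and of 20 T lymphocyte genes 13 had a value; Cd3d, Cd3e, Cd3g and Cd247, the signalling chains of the T cell receptor, were not among them and were not analysed here. Of 12 tested, 5 were under 1 CPM in both gland libraries and passed the filter through the rims alone; of the other 7, 5 were higher in the rim and 1 lower. Cd4, which rat macrophages and monocytes also carry, had 200.4, 142, 224, 168 and 153 CPM in the rims and 11.1 and 23.6 CPM in the gland libraries (3.43 ± 0.29, limma adjusted p = 3.03e-05). Cd8a, of the coreceptor of cytotoxic T cells, had 30.6, 4.75, 15.8, 13.5 and 10.8 CPM in the rims and 1.07 and 1.25 CPM in the gland libraries (3.46 ± 0.60), and its partner chain Cd8b had 235 rim reads against 2 gland reads, a ratio of 92.5 (95% counting interval 25.3 to 768). The rim of Rat3867 was the highest for both chains. Cd6, a T cell adhesion receptor, was lower (-1.58 ± 0.55, adjusted p = 0.0332), a call lost under total-count scaling (-0.70), against gland 2 alone (-0.92) and without the rim of Rat3867, Rat3875 or Rat3876. Of the B cell list 5 of 17 genes had a value and 4 were tested; 2 of these 4 were under 1 CPM in both gland libraries and so passed the filter through the rims alone, and the calls on the list are not counted here. Blnk, an adaptor of B cells and of macrophages, had 60.2, 61.1, 49.1, 53.7 and 36.8 CPM in the rims and 1.16 and 1.89 CPM in the gland libraries (5.11 ± 0.27). Blk, a Src-family kinase, had 18.3, 26.2, 17, 3.44 and 7.01 CPM in the rims and 0 reads in the gland libraries, at least 118-fold. Cd79a and Ms4a1, which define B cells, were not analysed here. Of the NK list 3 of 14 genes were tested, all 3 of them under 1 CPM in both gland libraries. Klrk1, the activating receptor NKG2D, had 27.6, 16.2, 21.2, 19.4 and 38.2 CPM in the rims and 0.792 and 0.845 CPM in the gland libraries (4.84 ± 0.34), and Il2rb had 1.39, 1.37, 1.71, 2.01 and 4.64 CPM, with 1 gland read, a ratio of 59.8 (10.4 to 2393). Nkg7, a granule protein of cytotoxic cells, was not called (3.64 ± 1.53, adjusted p = 0.0668); it was called higher under total counts (4.52), on the rim values as deposited (4.57), by edgeR (4.96), by DESeq2 (5.38) and without the rim of Rat3869 (4.47). Il2rg, the receptor chain disrupted in SRG rats, still gave 14.3, 13.9, 12.3, 15.8 and 15.8 CPM in the rims, against 3.31 and 12.2 CPM in the gland libraries (1.18 ± 0.43, adjusted p = 0.0404); gene-level reads can come from a disrupted transcript and so check nothing. Its call was lost without any 1 of the rims (adjusted p from 0.0589 to 0.0702) and against gland 2 alone (0.24, adjusted p = 0.411).

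Interferon-induced genes were higher in the rim in 19 of 28 tested cases, none lower, all 19 under every scaling, with a median of 1.74. Of the 19, 1 was under 1 CPM in both gland libraries. Mx2, an interferon-induced GTPase, had 176, 149.9, 64.2, 124 and 369.9 CPM in the rims and 6.85 and 10.5 CPM in the gland libraries (4.15 ± 0.55, limma adjusted p = 0.000285). Irf7, the regulator of type I interferon genes, had 117, 52.3, 49.8, 61.2 and 212 CPM in the rims and 10.8 and 19.5 CPM in the gland libraries (2.52 ± 0.56). The rim of Rat3877 was the highest for both, and Rat3875 the lowest. Stat2, which carries the interferon signal to the nucleus, had 133, 97.2, 95.5, 98.4 and 133 CPM in the rims and 30.1 and 39.7 CPM in the gland libraries (1.67 ± 0.20). MHC class I genes rose less, with a median of 1.13 and 8 of 10 tested called higher. B2m, the light chain of class I, had 1717, 1272, 1512, 1597 and 2008 CPM in the rims and 505 and 1087 CPM in the gland libraries (1.11 ± 0.31), a call lost against gland 2 alone (0.56, adjusted p = 0.113) and without the rims of Rat3876 and Rat3877 (1.05, adjusted p = 0.0519). RT1-A1, a class I heavy chain of the rat, differed by 0.99 ± 0.22 and Psmb10, a subunit of the immunoproteasome, by 0.67 ± 0.15.

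Rat transcripts of dividing cells were far higher in the rim. All 22 tested genes of G2 and mitosis were higher under every scaling, with a median of 4.98, and the list took 0.0857 to 0.142% of rat reads in the rims against 0.00287 and 0.00516% in gland 1 and gland 2. Of the 22, 4 were under 1 CPM in both gland libraries and passed the filter through the rims alone. Mki67, the marker of cycling cells, had 155, 161, 112, 131 and 181 CPM in the rims and 1.54 and 3.53 CPM in the gland libraries (5.97 ± 0.31, limma adjusted p = 4.39e-06; 6.57 against gland 1 alone and 5.37 against gland 2 alone). Top2a, the topoisomerase of dividing cells, had 142, 119.6, 98.7, 108 and 142 CPM in the rims and 1.82 and 1.37 CPM in the gland libraries, 76.5-fold (6.26 ± 0.20). Prc1, a midzone protein of the spindle, had 69.8, 57.6, 46.4, 63.6 and 70.9 CPM in the rims and 3.49 and 3.64 CPM in the gland libraries (4.09 ± 0.20). Rat3875 was the lowest rim for each of these genes and no rim overlapped the gland. 4T1 cells divide as well, and the rate of misplaced reads in their pellet would give 0.263% of the rim reads of Mki67, 1.84% of Top2a and 0.774% of Prc1. Of 22 tested DNA replication genes 20 were higher and 1 lower, with a median of 1.97. Of the 20, 3 were under 1 CPM in both gland libraries. Of the other 19 tested, 17 were higher. Pcna, the sliding clamp of replication, had 92.7, 114, 90.6, 108 and 135 CPM in the rims and 28.9 and 38.1 CPM in the gland libraries (1.69 ± 0.19), and Mcm4, of the replicative helicase, had 74.1, 57.3, 57.7, 58.8 and 63.2 CPM, against 24.1 and 18.5 CPM (1.55 ± 0.17). Rrm2, a subunit of ribonucleotide reductase, differed by 6.50 ± 0.39 (7.20 against gland 1 alone and 5.80 against gland 2 alone), whereas its partner Rrm1 differed by 0.63 ± 0.22 (adjusted p = 0.0372), a call lost against gland 1 alone (0.32) and without the rim of Rat3867, Rat3869, Rat3876 or Rat3877. Gins2, a helicase cofactor, was called lower (-0.45 ± 0.16), with the sign turned under total counts (0.43) and the call lost against gland 2 alone (-0.38) and without the rim of Rat3867, Rat3869, Rat3875 or Rat3877.

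Genes of low oxygen rose in part. Of 21 tested, 14 were higher in the rim and 3 lower, with a median of 1.62. Of the 14, 1 was under 1 CPM in both gland libraries. Ndrg1, a stress-induced protein, had 331, 584, 496, 364 and 616 CPM in the rims and 153 and 193 CPM in the gland libraries (1.43 ± 0.27, limma adjusted p = 0.0018). Slc2a1, the glucose transporter GLUT1, had 177, 423, 293, 162 and 403 CPM in the rims and 12.2 and 13.1 CPM in the gland libraries (4.42 ± 0.39). Vegfa, the main angiogenic factor, moved little, with 262, 419, 358, 269.6 and 329 CPM in the rims and 204 and 162 CPM in the gland libraries (0.83 ± 0.21; 0.66, adjusted p = 0.0553, against gland 1 alone). Bnip3, a mitophagy receptor (-1.20 ± 0.33), Egln1, the oxygen-sensing prolyl hydroxylase (-2.06 ± 0.29), and Epas1, the HIF-2 alpha subunit rich in endothelium (-1.80 ± 0.24), were lower. The call on Bnip3 was lost under total counts (-0.33) and against gland 2 alone (-0.91, adjusted p = 0.107).

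Glycolysis genes split: of 18 tested 8 were higher in the rim and 7 lower, with a median of 0.28. Of the 8, 1 was under 1 CPM in both gland libraries. The lower genes were Tpi1, Pfkm, Aldoa, Ldha, Gpi, Pkm and Pgk1; Tpi1 has near-identical copies and its value is uncertain. Pfkm, the muscle phosphofructokinase, had 33.2, 34.4, 27.8, 41.7 and 15.4 CPM in the rims and 7998 and 3897 CPM in the gland libraries (-7.59 ± 0.40, limma adjusted p = 4.39e-06), while the liver form Pfkl had 185, 224, 202, 151 and 208 CPM in the rims and 18.4 and 36.9 CPM in the gland libraries (2.88 ± 0.26). Enolase split in the same way, with the ubiquitous form Eno1 at 1177, 1511, 1306, 953 and 1211 CPM in the rims and 192 and 252 CPM in the gland libraries (2.47 ± 0.21), and the muscle form Eno3, counted with the muscle list, at 37.1, 16.8, 14, 39.7 and 9.21 CPM in the rims and 15308 and 6715 CPM in the gland libraries (-8.99 ± 0.59; -9.58 against gland 1 alone and -8.39 against gland 2 alone). Hk3, the hexokinase of myeloid cells, had 91.5, 104, 92.4, 65.9 and 115 CPM in the rims and 0.885 and 0.554 CPM in the gland libraries (7.04 ± 0.26). Aldoa, an aldolase abundant in muscle, was lower (-4.85 ± 0.38; -5.53 against gland 1 alone and -4.18 against gland 2 alone), as was Ldha, lactate dehydrogenase A (-2.31 ± 0.36; -2.94 and -1.68). Muscle genes moved with these isoforms, and the part of muscle in their levels was not tested. The pellet rate of misplaced reads would give 41.5% of the rim reads of Pfkm and 113.5% of those of Eno3.

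Cholesterol synthesis and protein folding rose modestly. Of 21 tested cholesterol genes 12 were higher in the rim under every scaling and 1 lower, with a median of 0.94. Hmgcs1, an early enzyme of the pathway, had 222, 192, 145, 155 and 169 CPM in the rims and 45.9 and 39 CPM in the gland libraries (2.05 ± 0.18, limma adjusted p = 3.82e-05). All 5 rims lay above both gland libraries. The regulator Srebf2 (0.68 ± 0.13) and the epoxidase Sqle (3.21 ± 0.23) were called too, and Fdft1, squalene synthase, was lower (-1.05 ± 0.18). Of 21 tested genes of the unfolded protein and integrated stress responses 12 were higher and 2 lower, with a median of 1.05. Chaperones of the endoplasmic reticulum were among the higher genes: Hspa5 had 718, 720.5, 611, 664 and 716 CPM in the rims and 297 and 282 CPM in the gland libraries (1.24 ± 0.14), Hsp90b1 differed by 1.59 ± 0.19 and Calr by 1.07 ± 0.21. Chac1, a glutathione-degrading enzyme induced by stress (-2.81 ± 0.41), and Herpud1, of endoplasmic reticulum degradation (-0.45 ± 0.13), were lower; Herpud1 turned its sign under total counts (0.43) and lost its call against gland 2 alone (-0.43, adjusted p = 0.0529).

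Blood vessel genes differed between the gland libraries, with a median log2 ratio of -1.38 for gland 1 against gland 2. Of 23 tested endothelial genes none was higher in the rim and 7 were lower, 3 of them under every scaling, with a median of -0.40 under TMM and 0.48 under total counts. Cdh5, VE-cadherin, had 103, 64, 74.3, 114 and 86.8 CPM in the rims and 53.8 and 164 CPM in the gland libraries, and the rims lay between the gland libraries (-0.12 ± 0.40, limma adjusted p = 0.81); against gland 2 alone it was called lower (-0.92, adjusted p = 0.0348). Kdr, the main VEGF receptor, had 41, 38.6, 36.3, 46.4 and 50 CPM in the rims and 28.8 and 80.6 CPM in the gland libraries (-0.19 ± 0.34); against gland 1 alone it was called higher (0.55, adjusted p = 0.0465) and against gland 2 alone lower (-0.93, adjusted p = 0.00656). Egfl7, a secreted endothelial protein, was lower (-1.83 ± 0.36, adjusted p = 0.00249), a call lost under total counts (-0.96, adjusted p = 0.103). Tek, the angiopoietin receptor (-1.09 ± 0.37), and Mmrn2, a matrix protein of vessels (-1.40 ± 0.47), lost their calls under total counts (-0.22 and -0.52) and against gland 1 alone (-0.50 and -0.66), and each also without the rim of Rat3867, Rat3869 or Rat3875. Rbp7, a retinol-binding protein of capillaries and fat, had the largest decrease (-4.63 ± 1.10; -3.94 against gland 1 alone, -5.33 against gland 2 alone and -3.99 without the rim of Rat3869). Of 7 tested lymphatic genes 2 were called, both higher: Lyve1, the hyaluronan receptor that macrophages share, with 81.3, 149, 269, 294 and 474 CPM in the rims and 15.3 and 44.6 CPM in the gland libraries (3.04 ± 0.66; 3.81 against gland 1 alone and 2.26 against gland 2 alone), and podoplanin, Pdpn, which fibroblasts share (2.30 ± 0.23). Of 14 tested pericyte and smooth muscle genes 5 were higher and 3 lower; Tagln, a contractile protein of smooth muscle and myofibroblasts, had 403, 884, 277, 596 and 592 CPM in the rims and 62.2 and 125 CPM in the gland libraries (2.53 ± 0.44), and Des, the desmin of all muscle, was lower (-6.28 ± 0.48).

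Skeletal muscle made up the largest decreases. Of 40 tested muscle genes 36 were lower in the rim under every scaling, with a median of -8.56. Myh4, the fast myosin heavy chain, had 277, 256, 159, 387 and 1.97 CPM in the rims and 169825 and 79978 CPM in the gland libraries (-10.23 ± 1.85, limma adjusted p = 0.00152). Acta1, skeletal actin, had 137, 133, 56.6, 153 and 1.34 CPM in the rims and 69268 and 31280.4 CPM in the gland libraries (-9.98 ± 1.70), and Ckm, muscle creatine kinase, had 49.1, 27.8, 5.31, 81.3 and 0.551 CPM, against 41919 and 16910.5 CPM (-11.04 ± 1.71). The rim of Rat3877 held almost none of the 3, and the other 4 rims a low level. Without Rat3877 the differences were -8.82, -8.70 and -9.91. The rate of misplaced reads in the 4T1 pellet would give 19.9 to 81.2% of the muscle reads of a rim. Over all rims it would give 125% of the reads of Myh4, 112% of Acta1 and 159.6% of Ckm, more than were counted. The pellet held 3120 reads of Myh4 with 29446694 mouse reads, and the rim of Rat3877 held 12 with 20193098 mouse reads. So the pellet rate overstated the misplaced reads of these 3 genes over all rims, and of Myh4 in that rim. With the expected misplaced reads subtracted the differences were -18.14, -16.23 and -16.46, and the list's median was -11.08. Rims left with no reads by this subtraction stand at a floor, so these differences are not measured sizes. The list's median was -4.03 over the members left when genes with over 10% of misplaced reads were dropped. The size of these decreases depends on the treatment of misplaced reads, and Myh4, Acta1 and Ckm were called lower in every alternative that kept them. Tpm3, a tropomyosin of slow muscle and of many other cells, was the member called higher (2.42 ± 0.23), and the slow-fibre troponins Tnni1 (-3.99 ± 1.57), Tnnc1 (-0.59 ± 0.98) and Tnnt1 (0.80 ± 0.78) were not called; Tnni1 was called lower without the rim of Rat3869 (-4.45) or Rat3875 (-4.64). The 10 largest decreases outside this list included Rpl3l, a muscle form of a ribosomal protein, with 1.22, 1.69, 0.27, 2.37 and 0.236 CPM in the rims and 1259 and 528 CPM in the gland libraries (-10.01; -10.63 against gland 1 alone and -9.38 against gland 2 alone). The others were AABR07005775.1, AABR07052585.2, Ppp1r1a, Sh3bgr, Smtnl1, Sypl2, Nrap, Apobec2 and Klhl31. The pellet rate of misplaced reads would give 149.8% of the rim reads of AABR07005775.1, 99.9% of AABR07052585.2 and 101.6% of Ppp1r1a. For Nrap, Apobec2 and Klhl31 it would give 83, 147 and 98.8%. The sizes and ranks of these 6 decreases therefore depend on the treatment of misplaced reads. Of the 1843 genes lower in the rim under every scaling, 1186 (64.4%) were at least 1.5-fold higher in gland 1, the library richer in muscle, than in gland 2, and 85 (4.61%) were at least 1.5-fold higher in gland 2. Over all genes tested these shares were 20% and 24.7%. All of these shares were taken on TMM-scaled CPM, with factors of 0.521 in gland 1 and 0.806 in gland 2. They depend on that scaling, and the part of muscle in them was not tested.

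Genes of mitochondrial energy supply were lower in the rim. All 25 tested nuclear genes of the respiratory chain fell under every scaling, with a median of -2.15. Atp5f1b, of the ATP synthase, had 743, 926, 759, 714 and 819 CPM in the rims and 4706 and 2638 CPM in the gland libraries (-2.16 ± 0.24, limma adjusted p = 0.000122). Its partner subunit Atp5f1a differed by -2.20 ± 0.22 and Cox4i1, of cytochrome oxidase, by -1.87 ± 0.24. The rims were tightly grouped and below both gland libraries for these 3 genes. Of 22 tested genes of the citric acid cycle and fatty acid oxidation 21 were lower and 1 higher, with a median of -2.26. Mdh2, mitochondrial malate dehydrogenase, had 103, 109, 84.9, 95.3 and 107 CPM in the rims and 947 and 488 CPM in the gland libraries (-2.78 ± 0.24), and Idh2, mitochondrial isocitrate dehydrogenase, differed by -2.07 ± 0.22. The exception was Cpt1a, the carnitine transferase of liver and immune cells (0.80 ± 0.27), whose call was lost against gland 2 alone (0.43, adjusted p = 0.264) and without the rim of Rat3875, Rat3876 or Rat3877. Of 13 transcripts encoded in mitochondria 12 were lower, with a median of -1.72; Mt-atp6 had 2025, 2632, 2593, 2571 and 2051 CPM in the rims and 9850.3 and 6098 CPM in the gland libraries (-1.72 ± 0.28). Mt-co1 (-1.38 ± 0.32) and Mt-co3 (-1.46 ± 0.28) lost their calls under total counts (-0.50 and -0.58). On TMM-scaled CPM all 3 lists were higher in gland 1 than in gland 2. The medians of log2 ratios were 0.92, 0.75 and 0.70, against 1.10 for the muscle list. These ratios depend on the scaling. As shares of rat reads, gland 1 and gland 2 were closer, with 1.03 and 0.873%, 0.489 and 0.453%, and 3.94 and 3.77%. The muscle list took 34 and 23.4%. The part of muscle in these decreases was not tested.

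Fat cell genes fell. Of 23 tested adipocyte genes 19 were lower in the rim, 13 of them under every scaling, and none higher, with a median of -4.03. Adipoq, the hormone adiponectin, had 4.81, 2.5, 1.89, 95.7 and 26.4 CPM in the rims and 297 and 1090 CPM in the gland libraries (-5.99 ± 1.45, limma adjusted p = 0.00679). The rims of Rat3876 and Rat3877 held more than the other rims and less than either gland library. Against gland 1 alone the call on Adipoq was lost (-5.05, adjusted p = 0.0532), and without the rim of Rat3876 the difference was -6.85. Lep, the hormone leptin, had 0.244, 0.0806, 0.45, 1.92 and 0.709 CPM in the rims and 41.3 and 123 CPM in the gland libraries (-7.43 ± 1.10; -6.64 against gland 1 alone and -8.22 against gland 2 alone). Misplaced reads at the pellet rate would make up 60.9% of the rim reads of Lep. Fabp4, a fatty acid carrier, had 29.1, 67.6, 106, 256 and 182 CPM in the rims and 694 and 2261 CPM in the gland libraries (-3.65 ± 0.80; -2.80 and -4.51). Scd, the stearoyl-CoA desaturase, had 47.8, 41, 29.1, 52.5 and 27.5 CPM in the rims and 262 and 5617 CPM in the gland libraries (-4.98 ± 0.94; -2.77 and -7.20), and the pellet rate of misplaced reads would give 46.9% of its rim reads. The lipogenic enzymes that many cells use were not called: Fasn (-1.72 ± 0.78, adjusted p = 0.0844), Acly (0.33 ± 0.50) and Acaca (-0.34 ± 0.60). Each of them stood higher in gland 2 than in gland 1, and against gland 2 alone Fasn (-3.57), Acly (-0.85) and Acaca (-1.75) were called lower, while against gland 1 alone Acly (1.51) and Acaca (1.07) were called higher. Lpl, lipoprotein lipase, which macrophages share, was not called (-0.48 ± 0.27) except as lower against gland 2 alone (-0.93, adjusted p = 0.0188).

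**Figure D5:**
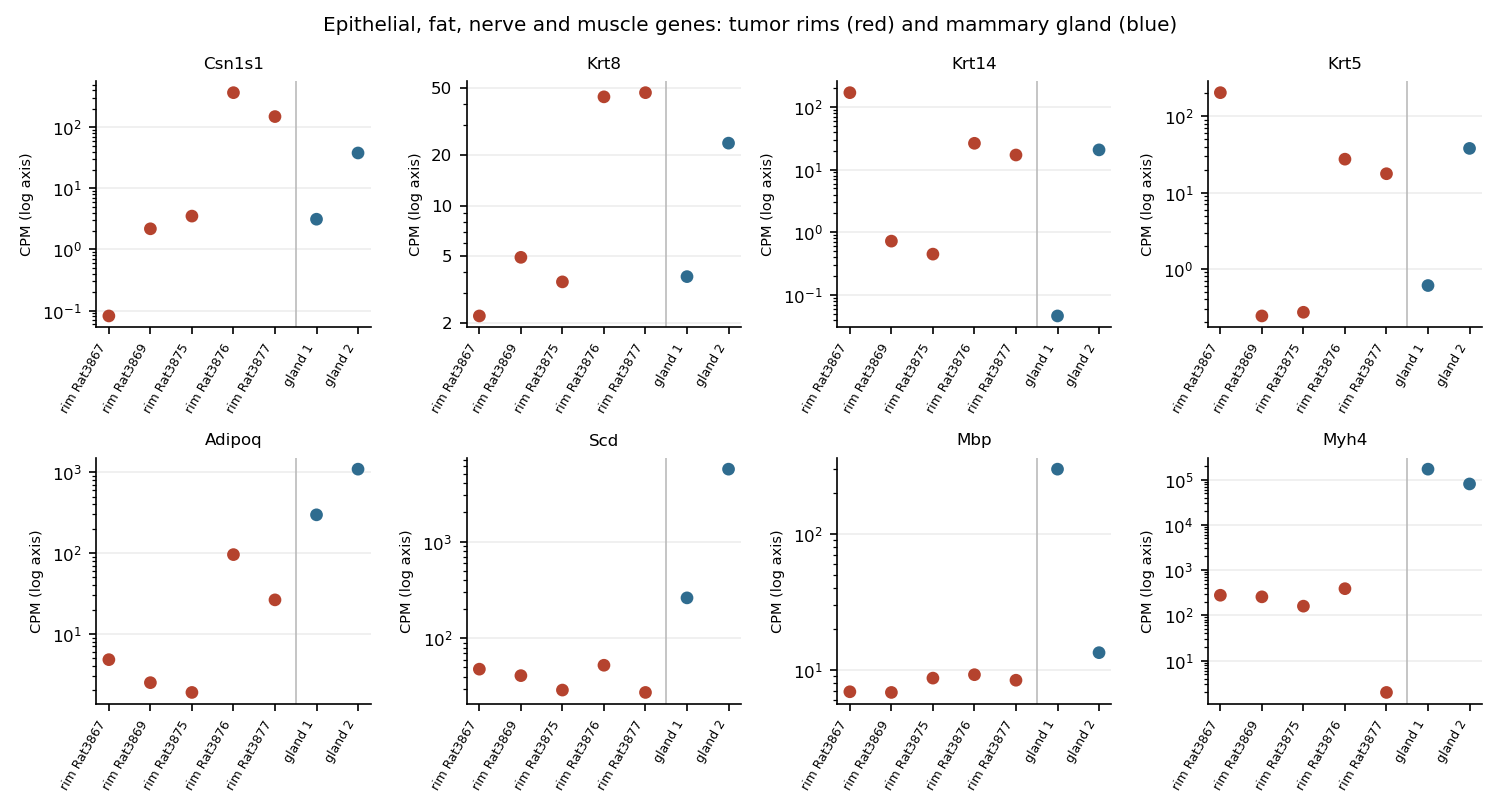
CPM on a log axis of 8 tissue genes in each of the 5 rim libraries (red) and the 2 gland libraries (blue); each point is 1 library. The milk protein gene Csn1s1 and the keratins Krt8, Krt14 and Krt5 overlap between rim and gland, while Adipoq, Scd, Myh4 and Mbp lie below both gland libraries in every rim, with Mbp far higher in gland 1 than in gland 2.

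Genes of mammary epithelium varied widely within both groups. Of 24 tested luminal genes 4 were higher in the rim and none lower, and of 12 basal genes 1 was higher and 2 lower. The basal gene called higher and 1 of the 4 luminal genes were under 1 CPM in both gland libraries. Both passed the filter through the rims alone. Csn1s1, a milk casein, had 0.0815, 2.18, 3.51, 368 and 149 CPM in the rims and 3.12 and 37.9 CPM in the gland libraries (-0.43 ± 2.94, limma adjusted p = 0.907). Krt8, the luminal keratin, had 2.2, 4.91, 3.51, 44.4 and 47 CPM in the rims and 3.77 and 23.5 CPM in the gland libraries (0.02 ± 1.34), and the adhesion molecule Epcam had 3.67, 1.05, 2.25, 52.2 and 31.6 CPM, against 0.699 and 13.4 CPM (1.14 ± 1.68). With the expected misplaced mouse reads subtracted the difference of Krt8 was -2.57 (adjusted p = 0.434); they would make up 14.3% of its rim reads. Rat3876 and Rat3877 were high for all 3 genes, the other rims low, and the ranges of rim and gland overlapped. The basal keratins followed another order, with Krt14 at 168, 0.725, 0.45, 26.2 and 17.1 CPM in the rims and 0.0466 and 20.6 CPM in the gland libraries (2.95 ± 2.77), and Krt5 at 205, 0.242, 0.27, 27.5 and 17.7 CPM in the rims and 0.606 and 38 CPM in the gland libraries (0.27 ± 2.78). Here Rat3867 was the highest. Few members were called. Cdh1, E-cadherin, had 92.5, 47.8, 101, 52.5 and 41.3 CPM in the rims and 7.41 and 16.9 CPM in the gland libraries (2.49 ± 0.43; 3.08 against gland 1 alone and 1.89 against gland 2 alone). Cdh3, P-cadherin, had 36.1, 45.8, 21.5, 19 and 11.1 CPM in the rims and 0.14 and 0.554 CPM in the gland libraries (6.41 ± 0.65; 7.41 and 5.42). Erbb3, a receptor of the EGF receptor family, differed by 1.74 ± 0.47, a call lost against gland 2 alone (1.45, adjusted p = 0.0937), and Spint1, a protease inhibitor, by 3.25 ± 1.06, a call lost against gland 2 alone (0.96) and without the rim of Rat3867 (3.14, adjusted p = 0.0523). Itgb4, the integrin of hemidesmosomes, was lower (-2.31 ± 0.66), a call lost under total counts (-1.43) and against either gland library alone (adjusted p = 0.0801 and 0.0503), and -2.96 without the rims of Rat3876 and Rat3877. Oxtr, the oxytocin receptor of myoepithelium, had 0.244, 0.0806, 0.09, 2.64 and 0.394 CPM in the rims and 7.87 and 67.1 CPM in the gland libraries (-6.34 ± 1.42, adjusted p = 0.00462; against gland 1 alone -4.79, adjusted p = 0.0586).

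Receptors for hormones and growth factors were split. Of 16 tested genes of this list 3 were higher in the rim and 7 lower, 5 of these under every scaling, with a median of -0.99. Ghr, the growth hormone receptor, had 15.1, 22.2, 33.2, 40.4 and 26.1 CPM in the rims and 201 and 257 CPM in the gland libraries (-3.13 ± 0.34, limma adjusted p = 0.000106). Thra, a thyroid hormone receptor, had 42.9, 38.4, 42.6, 34.2 and 24.3 CPM in the rims and 216 and 145 CPM in the gland libraries (-2.31 ± 0.25). The groups lay apart for both genes. Nr3c1, the glucocorticoid receptor, was lower (-1.15 ± 0.15), a call lost under total counts (-0.27, adjusted p = 0.244). Fgfr1, a fibroblast growth factor receptor, was higher, with 301, 228, 294, 249 and 214 CPM in the rims and 63 and 115 CPM in the gland libraries (1.58 ± 0.24), and so was Vdr, the vitamin D receptor (2.44 ± 0.37; 3.29 against gland 1 alone and 1.59 against gland 2 alone). Igf1, a growth factor of stroma, was not called (0.29 ± 0.24), and neither was Esr1, the estrogen receptor (-3.87 ± 1.64, adjusted p = 0.0691), with 1.06, 0.0806, 0.09, 4.6 and 2.91 CPM in the rims and 8.8 and 9.77 CPM in the gland libraries; it was called lower without the rim of Rat3876 (-4.58) or Rat3877 (-4.42).

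Nerve and red cell genes were lower in the rim in part. Of 8 tested Schwann cell genes 5 were lower in the rim under every scaling and 3 were not called; in the median the list stood 2.57 higher in gland 1 than in gland 2 on the log2 scale. Mbp, myelin basic protein, had 6.93, 6.85, 8.73, 9.25 and 8.42 CPM in the rims and 302 and 13.4 CPM in the gland libraries (-3.0 ± 0.94, limma adjusted p = 0.0219). Gland 1 stood far above gland 2; against gland 2 alone the call was lost (-0.75, adjusted p = 0.0649), and against gland 1 alone the difference was -5.24. S100b, which adipocytes carry as well, was lower against each gland library (-5.95 ± 0.86; -5.41 against gland 1 alone, -6.50 against gland 2 alone, -6.81 without the rims of Rat3876 and Rat3877). Of 6 tested red cell genes 3 were lower, none under every scaling. Hba-a2, an alpha globin, had 18.8, 55.7, 51.4, 60.3 and 20.4 CPM in the rims and 92.7 and 131 CPM in the gland libraries (-1.59 ± 0.50), with its call lost under total counts (-0.71) and against either gland library alone (-1.34 and -1.83); globin genes have near-identical copies, so single values are uncertain.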

How the data were processed

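Members, gene lists and tests were chosen with earlier results of these data known. Rim values were deposited by the authors as a signal, CPM with 0.5 read added; reads came back whole (within 0.01) for 100% of values. The gland values were deposited as raw counts. Trim Galore, STAR, featureCounts and limma are named in the submitters' processing notes, with the builds Rnor_6.0 and GRCm38; their versions and strand use: not given in the sources used here. Gland columns are numbered 1 and 2 and the labels give replicates 1 and 3, so neither column was tied to a label. Libraries ranged from 4900651 to 21387704 rat reads. Reads of 14876 shared genes were scaled by TMM (edgeR 4.0.16) and tested with limma 3.58.1 (R 4.3.3) on log2 CPM for genes with at least 1 CPM in at least 2 of 7 libraries, at a Benjamini-Hochberg adjusted p of 0.05. In simulated data for rim against gland on 13903 genes, 100% of 4-fold increases, 94% of 4-fold decreases, 42% of 2-fold increases and 26% of 2-fold decreases were recovered. The simulation changed 200 genes, used 1 dispersion for all genes and gave both gland libraries the same expected levels. In the data 61.9% of genes were called and the gland libraries differed from each other, so these rates are not the power of this comparison. Named were the 10 largest increases and decreases outside muscle among genes called alike under every scaling without overlap and with a mean log2 CPM of at least 2, up to 3 called members per list with the highest mean CPM, a panel of 25 genes, and 116 others chosen after their values were seen; some genes that met this rule are not reported here. Alternatives covered scaling, filters, DESeq2 1.42.0, limma-voom, edgeR, misplaced reads and left-out libraries.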

Additional observations from a re-analysis of the deposited data

Results flagged for a closer look

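Among 249 named genes and 38 gene lists, 17 genes had 1 rim library standing apart from the other 4 by Dixon's criterion, which chance meets in about 1 in 20 groups. Rat3876 was apart on the high side for genes of fat and epithelium: Adipoq at 95.7 CPM, Gpd1 at 39.6 CPM, Csn2 at 20.1 CPM, Oxtr at 2.64 CPM, and also the collagen gene Col8a2 at 12.1 CPM. That rim also had the lowest share of mouse reads, 65.7%. In Rat3867 the basal keratins Krt14 and Krt5 stood high at 168 and 205 CPM, as did the collagenase gene Mmp13 at 37.7 CPM, and Lyz2 stood low at 1168 CPM. Rat3877 was high for the chemokine Cxcl9 at 16.1 CPM, the receptor gene Il2rb at 4.64 CPM, Col4a3 at 1.65 CPM and the tropomyosin gene Tpm3 at 517 CPM. Rat3875 was high for Tnn at 506 CPM, Mmp2 at 2184 CPM and the decoy receptor Il1r2 at 109 CPM, and low for the mitotic regulator Foxm1 at 16.1 CPM.

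The pellet of pure 4T1 cells, which holds no rat tissue, carried muscle transcripts in the reads assigned to rat: the 40 muscle genes took 5.59% of them. The ratio of Myh4 to Acta1 reads was 2.57 in the pellet, against 2.45 and 2.56 in gland 1 and gland 2. The source of these pellet reads was not tested.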

How the results depend on the processing

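With total counts the rim had 7472 genes higher and 1843 lower, and with rim values as deposited 7678 and 1794; of the alternatives run, these settings moved a count of calls by over 1.5 times. Leaving out 1 library gave 3633 to 4545 genes higher, 3155 to 4097 lower and 5242 to 5980 called alike under every scaling, each lowest without gland 1. edgeR gave 4249 higher and 4367 lower, and DESeq2 4432 and 4377. Without the rims of Rat3876 and Rat3877, an alternative chosen after seeing the data as was leaving out muscle with adipocyte genes, 3970 were higher and 3728 lower; without those genes 4439 and 4235. Of 5906 values of named genes under alternatives, 5588 kept direction and side of the threshold, 183 lost a call, 49 gained one, 73 changed sign with no call in either setting and 13 changed sign with a call in at least 1. Under total counts and as deposited the sign changed for Nfkbia (0.034 and 0.083), Gins2 (0.43 and 0.48), Herpud1 (0.43 and 0.48), Insr (0.26 and 0.31) and Mt-atp8 (0.72 and 0.76); the cause was not tested. Leaving out 1 library also changed signs: Acly ranged from -0.85 without gland 1 to 1.51 without gland 2, Acaca from -1.75 to 1.07 and Kdr from -0.93 to 0.55. That the gland has 2 libraries limits the precision of every difference. No paired analysis was possible because the glands came from rats with no tumor and share no animal with the rims.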

Other observations

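Of the 4423 genes higher in the rim under every scaling, 333 (7.53%) were at least 1.5-fold higher in gland 1 than in gland 2. A further 1796 (40.6%) were at least 1.5-fold higher in gland 2. These shares were taken on TMM-scaled CPM and depend on that scaling. The luminal list took 0.167 and 0.104% of rat reads in the rims of Rat3876 and Rat3877, 0.0178 to 0.0272% in the other rims, and 0.003 and 0.0418% in gland 1 and gland 2.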
